A study of Mus musculus with 8 samples.

Results

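The genes described here encode glucose and monocarboxylate transporters in cultured mouse oligodendrocyte progenitors, the dividing precursors of the cells that make myelin. The 10 members were given by name: 6 genes of the Slc2a family of hexose carriers, 3 genes of the Slc16a family of monocarboxylate carriers, and Bsg. All 10 were found by symbol among the 56980 gene IDs of the count table, and all 10 passed the filter on low counts that left 18905 genes. The libraries came from wild-type C57BL/6 pups aged 6 to 8 postnatal days. Cortical cells of both sexes were immunopanned for PDGFRα after lectin-coated dishes had taken out microglia and endothelial cells. In the low glucose (LG) group, medium changes on days 1, 2 and 3 took glucose to 12.5, then 5, then 2.5 mM. In the high glucose (HG) group it stayed at 25 mM throughout. Both groups had grown beforehand in 25 mM glucose with the mitogens PDGF-AA (10 ng/mL) and bFGF (20 ng/mL). From seeding until harvest on day 5 both had PDGF-AA and no bFGF.

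Each group held 4 libraries, with total counts of 53869166 to 65733928 in LG and 50864130 to 61915909 in HG. Codes in the library descriptions are shared by same-numbered LG and HG libraries. Numbers 1 and 2 carry a single code (called code A here), number 3 another (code B) and number 4 another (code C). These totals exceed the read depth that the labels state, and whether the mates of a pair were counted apart is not given. The labels speak of independent preparations but do not say what the code shared by numbers 1 and 2 marks, so p-values measure the spread between these libraries, which may in part be technical. The progenitor markers Olig1 and Pdgfra averaged 2460 and 1770 CPM (counts relative to the TMM-scaled library size). The defining markers Cldn5 and Cdh5 of endothelium and Cx3cr1 of microglia were at 0 counts in all 8 libraries.

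Glucose is polar and crosses membranes on carriers of the Slc2a (GLUT) family, which let it run down its gradient. Lactate, pyruvate and ketone bodies cross together with protons on the monocarboxylate transporters (MCTs) of the Slc16a family. MCT1 and MCT4 need basigin, the single-pass glycoprotein made by Bsg, to reach the cell surface. In the brain, glucose enters through GLUT1 in endothelium and glia and GLUT3 in neurons, and oligodendrocytes are known for passing lactate to axons through MCT1.

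RefSeq promoter windows (build GRCm38.p6) were at hand for 7 of the 10 members, and none was used for Slc2a3, Slc16a7 and Bsg. The 250 bases before the start site are shown for the lead carrier of each family and for the carrier with the lowest level, since these mark both ends of the order of levels given further on. The windows are chr3:104638414-104638663 for Slc16a1, chr4:119108495-119108744 for Slc2a1 and chr11:120948817-120949066 for Slc16a3, all on the plus strand. Capitals mark matches, on either strand, to the GC box GGGCGG and to the E-box CACGTG.
Slc16a1: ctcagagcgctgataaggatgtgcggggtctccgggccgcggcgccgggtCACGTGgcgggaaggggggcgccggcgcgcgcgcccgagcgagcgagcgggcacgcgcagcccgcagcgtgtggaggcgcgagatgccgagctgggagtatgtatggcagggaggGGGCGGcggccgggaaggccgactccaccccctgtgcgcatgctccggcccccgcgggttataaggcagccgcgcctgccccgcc
Slc2a1: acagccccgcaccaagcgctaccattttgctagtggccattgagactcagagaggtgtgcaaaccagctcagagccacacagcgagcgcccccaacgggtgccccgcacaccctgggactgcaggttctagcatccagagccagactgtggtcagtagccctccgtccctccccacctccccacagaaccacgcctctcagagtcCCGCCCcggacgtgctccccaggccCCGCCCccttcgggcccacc
Slc16a3: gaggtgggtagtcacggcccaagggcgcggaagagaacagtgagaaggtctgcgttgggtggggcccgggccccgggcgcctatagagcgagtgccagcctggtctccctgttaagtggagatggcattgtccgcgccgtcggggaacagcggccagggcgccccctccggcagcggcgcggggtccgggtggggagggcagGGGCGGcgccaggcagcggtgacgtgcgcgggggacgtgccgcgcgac
The Slc16a1 window held 37 CpG dinucleotides, more than 97.9% of 27025 such windows, whose median was 6. The Slc16a3 window held 29 CpG dinucleotides, and the Slc2a1 window held 13. A CpG-dense window thus stood before both the most and the least abundant MCT gene. GC boxes were found in 5 of the 7 member windows and in 32.9% of all windows. The Slc16a1 window was the 1 member window of 7 with an E-box, which 6.05% of all windows held. No TATA box (TATAAA, either strand) was found in a member window, against 13% of all windows. Such matches describe letters in these windows and not bound sites.

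Levels are compared between genes in RPKM (CPM divided by the length of a gene's merged exons in kilobases). Bsg (ENSMUSG00000023175, chromosome 10, 79704491 to 79711969, GRCm38) stood first at 155 ± 15.3 RPKM (SD, n = 8), above 98.6% of the tested genes of known length. Slc16a1 (ENSMUSG00000032902, chromosome 3, 104638668 to 104658462), which encodes MCT1, came next at 8.47 ± 0.683 RPKM, so Bsg was 18.3-fold above it. Slc2a1 (ENSMUSG00000028645, chromosome 4, 119108711 to 119137983), the gene of GLUT1, followed at 6.32 ± 0.715 RPKM. Both gaps held in all 8 libraries, without overlap of the ranges.

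Below Slc2a1 the order was less clear. Slc2a8 (GLUT8, a carrier held mainly inside the cell) was at 5.71 ± 1.19 RPKM. Slc2a3 (GLUT3, the high-affinity neuronal carrier) was at 5.23 ± 1.00 RPKM. Slc2a1 exceeded Slc2a8 in 4 of 8 libraries, so these neighbours did not differ beyond their spread, and the ranges of Slc2a8 and Slc2a3 also overlapped. Slc2a6 (GLUT6, found on lysosomes) and Slc2a13 (HMIT, a proton-coupled carrier of myo-inositol) were level at 4.01 ± 0.672 and 3.91 ± 0.414 RPKM. With the longest transcript as the length, Slc2a3 and Slc2a8 changed places, and so did Slc2a13 and Slc2a6.

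In each of the 8 libraries the last 3 members kept their order below all the others. Slc2a12 (GLUT12) was at 2.71 ± 0.272 RPKM. An exon of Slc2a12 is overlapped by Tbpl1 on the other strand, which had 1641 to 2947 counts, and no strand setting is given in the sources used here. Slc16a7, which encodes the high-affinity carrier MCT2, was at 0.901 ± 0.157 RPKM. Slc16a3, which encodes MCT4, the carrier of lactate out of strongly glycolytic cells, was at 0.139 ± 0.0299 RPKM on 26 to 58 counts a library.

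**Figure D1:**
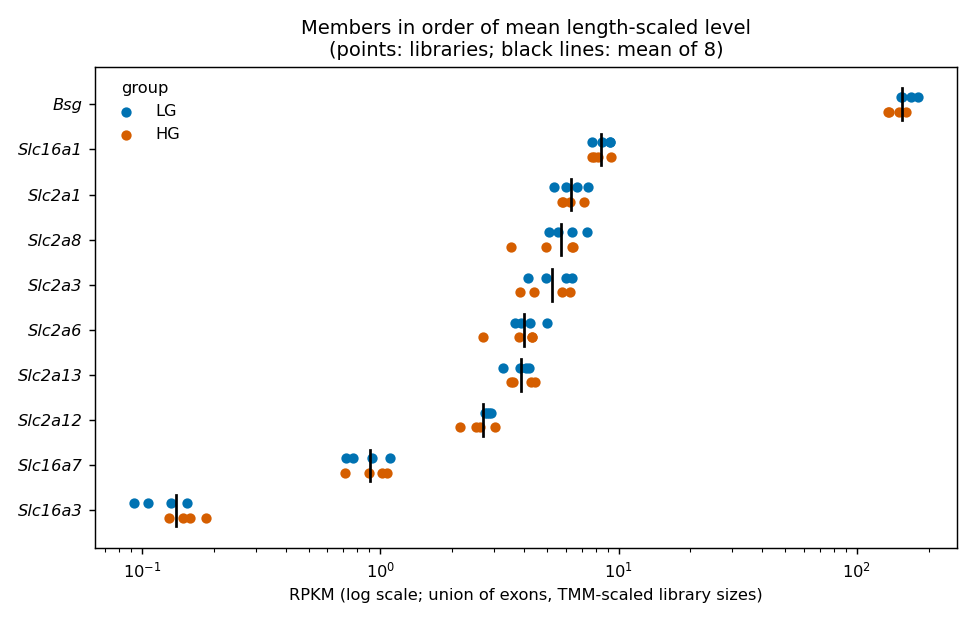
RPKM of each member (log axis) in LG (blue) and HG (orange) libraries, with the mean of all 8 libraries as a black line. Bsg, at 155 RPKM, stands far right of the carriers, and Slc16a3, at 0.139 RPKM, far left.

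Within the MCTs, Slc16a1 made up 89.6 ± 2.27% of the summed RPKM in LG and 88.4 ± 2.43% in HG (SD, n = 4 each). Slc16a7 made up 9.17 ± 2.07% in LG and 9.95 ± 2.17% in HG. Slc16a3 made up 1.26 ± 0.275% in LG and 1.67 ± 0.326% in HG. The 6 Slc2a members summed to 28.7 ± 2.38 RPKM in LG and 27.1 ± 4.08 RPKM in HG. The 3 MCT members summed to 9.65 ± 0.631 RPKM in LG and 9.36 ± 0.529 RPKM in HG. These group means lay within an SD of each other for every measure but the Slc16a3 share, and no p is given for them.

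No member passed in LG against HG. With no block in the edgeR quasi-likelihood fit, 0 of 10 members and 0% of the 18905 genes had a Benjamini-Hochberg adjusted p below 0.05. The lowest adjusted p of a member was 0.9999 by edgeR, and no member had an unadjusted p under 0.05, against 3.94% of all genes. With the replicate number as a block 0 of 10 members passed (lowest edgeR adjusted p 0.321), against 0.418% of all genes, and 2 had an unadjusted p under 0.05, against 13.4%. The median log2 fold change was 0.072 over the members and 0.005 over all genes, with 7 members above 0, a sign shared by 51.4% of all genes. In no member did the 4 LG libraries part from the 4 HG libraries, as they did in 2.89% of all genes (1.07% with LG higher and 1.82% with LG lower). No member was higher in LG in 4 of 4 pairs, against 10.7% of all genes, or lower in 4 of 4 pairs, against 11%.

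The class I glucose carriers were level between the groups. Slc2a1 was at 23.4, 26.0, 18.8 and 21.2 CPM in LG libraries 1 to 4, against 20.2, 25.2, 20.6 and 22 CPM in HG libraries 1 to 4. Library 2 was the highest in both groups, and LG was above HG in 2 of 4 pairs. The log2 fold change was 0.02, with a 95% interval from -0.24 to 0.29, that is, from 0.848 to 1.22-fold. The replicate block narrowed the interval to -0.15 to 0.19. Slc2a3 was at 30.3, 36.1, 46.1 and 43.6 CPM in LG, against 27.9, 31.9, 42.1 and 45.4 CPM in HG. Libraries 3 and 4 of both groups were above libraries 1 and 2 of both. The Slc2a3 log2 fold change was 0.08 (SE 0.179, 95% interval -0.32 to 0.48). With the replicate block it was 0.09 (SE 0.065, 95% interval -0.05 to 0.23).

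Among the class III carriers, Slc2a8 had the largest difference. It was at 16.3, 17.9, 20.4 and 23.6 CPM in LG, against 11.3, 15.9, 20.5 and 20.7 CPM in HG. HG library 1 was the lowest of the 8, and pair 1 carried most of the difference (0.53 on the log2 scale, against -0.01 to 0.19 in the other pairs). The log2 fold change was 0.20 (SE 0.194, 95% interval -0.24 to 0.63). With the replicate block it was 0.22 (95% interval 0.02 to 0.41, edgeR adjusted p = 0.321), and with no block it ran from 0.05 without HG library 1 and 0.09 without LG library 4 to 0.30 without HG library 4 (0.29 without HG library 3). Slc2a6 was at 11.8 to 16.1 CPM in LG and 8.63 to 14.0 CPM in HG, with a log2 fold change of 0.15 (95% interval -0.22 to 0.51), or 0.01 without HG library 1 and 0.05 without LG library 4. Here too HG library 1 was lowest, and the groups overlapped. The Slc2a6 interval with the replicate block was -0.05 to 0.36.

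Slc2a12 kept within 11.6 to 12.3 CPM in LG, against 9.17 to 12.9 CPM in HG. The LG libraries all lay inside the HG range. The log2 fold change was 0.13 (95% interval -0.13 to 0.38, or -0.07 to 0.34 with the replicate block). It was 0.05 without HG library 1 and 0.21 without HG library 4. Slc2a13 was at 27.4 to 35.1 CPM in LG and 29.5 to 37.4 CPM in HG. Its log2 fold change was -0.05 (95% interval -0.29 to 0.20, or -0.19 to 0.10 with the replicate block). LG was above HG in 1 of 4 pairs.

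Of the monocarboxylate carriers, Slc16a1 was the most even in the edgeR fits without a block and with the replicate block. It was at 40.8, 40.6, 34.1 and 37.7 CPM in LG, against 36.2, 41.2, 35 and 34.2 CPM in HG. The ranges lay almost on top of each other, and the log2 fold change was 0.06, with a 95% interval from 0.909 to 1.2-fold (0.03 to 0.14 with a library or pair left out). On the log2 scale the 95% interval with the replicate block was -0.08 to 0.21. Slc16a7 was at 8.51, 9.12, 10.9 and 13.1 CPM in LG, against 10.6, 8.38, 12.7 and 12.1 CPM in HG. LG was above HG in 2 of 4 pairs. The log2 fold change was -0.07 (95% interval -0.45 to 0.31, or -0.29 to 0.14 with the replicate block).

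Slc16a3 had the largest log2 fold change of the members and the fewest counts. It was at 0.493, 0.703, 0.563 and 0.827 CPM in LG, against 0.847, 0.689, 0.788 and 0.984 CPM in HG. LG was below HG in pairs 1, 3 and 4, and the ranges overlapped. The log2 fold change was -0.35 (SE 0.244, 95% interval -0.90 to 0.19, unadjusted p = 0.182 and adjusted p not below 0.9999 by edgeR). With 26 to 58 counts a library, that interval runs from 0.538 to 1.14-fold. The replicate block hardly moved it (-0.91 to 0.19 on the log2 scale).

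Bsg came nearest to a difference without a block. It was at 307, 277, 328 and 279 CPM in LG, against 245, 249, 274 and 292 CPM in HG. The values of LG libraries 1 and 3 were above all HG values, while HG library 4 was above LG libraries 2 and 4. The log2 fold change was 0.17 (SE 0.086, 95% interval -0.02 to 0.36, unadjusted p = 0.0781 by edgeR), and it did not pass. With the replicate block the interval was 0.01 to 0.33 and the edgeR adjusted p 0.331. Emb, which encodes embigin, the partner that MCT2 prefers, was at 14.8 ± 1.40 CPM in LG and 15.3 ± 1.70 CPM in HG (log2 fold change -0.05).

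**Figure D2:**
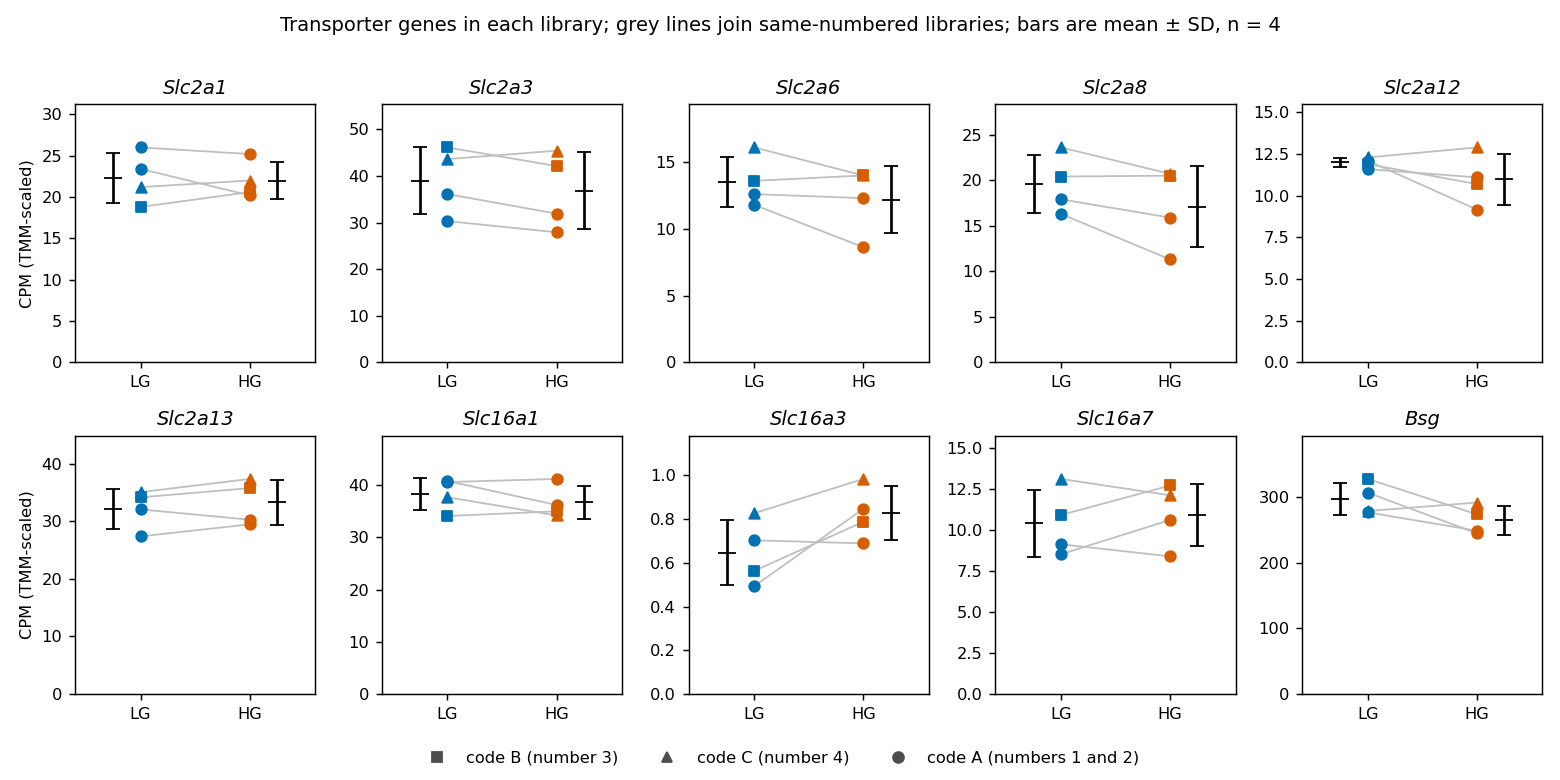
CPM of each member in every library, LG left and HG right, with lines joining same-numbered libraries, symbols for the description code and bars for mean ± SD (n = 4). The groups overlap in all 10 panels, and squares and triangles (numbers 3 and 4) stand above circles in the Slc2a3 and Slc2a8 panels.

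**Figure D3:**
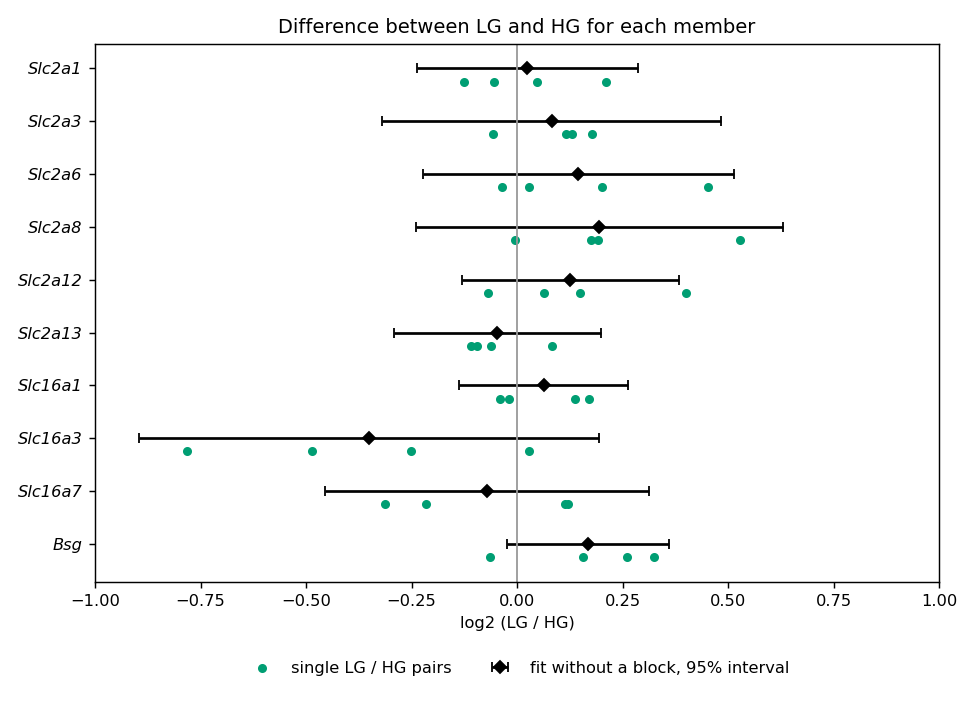
Log2 ratio of LG over HG for each member, with the edgeR estimate without a block and its 95% interval (black) and the 4 single pairs (green). Every interval of this fit holds 0, from the widest in Slc16a3 (-0.90 to 0.19) to the interval of Bsg (-0.02 to 0.36). With the replicate block (not drawn) those of Slc2a8 (0.02 to 0.41) and Bsg (0.01 to 0.33) do not hold 0.

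Several of these values moved when offsets for GC content and length, fitted together, were added. The GC content of the longest transcript was 60.8% for Slc2a8, 58.2% for Slc2a6 and 57.6% for Bsg, the 3 members with the highest log2 fold changes, and 37.7% for Slc16a7 and 45.3% for Slc2a13, both below 0. With GC and length offsets and no block, Slc2a8 was at 0.09, Slc2a6 at 0.04 and Bsg at 0.08. The same offsets put Slc16a7 at 0.10 and Slc2a1 at -0.05, so that both turned sign. Slc16a1 moved from 0.06 to 0.12 with them, further from no change than Slc16a7. Not all members followed this order. Slc16a3, with 56.6% GC, was at -0.45 with the offsets. Before the offsets Slc2a1 (54.0% GC, log2 fold change 0.02) was below 3 members of lower GC content. These were Slc2a3 (47.4%, 0.08), Slc2a12 (46.7%, 0.13) and Slc16a1 (42.9%, 0.06).

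Some members differed between the description codes. In edgeR's quasi-likelihood F test between the 3 codes, with the glucose group in the model, 2 of 10 members passed, against 13.7% of all genes. Slc2a3 averaged 44.3 ± 1.81 CPM in codes B and C and 31.5 ± 3.43 CPM in code A (SD, n = 4 each). It was higher by 0.48 in code B and by 0.50 in code C than in code A on the log2 scale (edgeR adjusted p = 0.00756). The call held in all 13 fits between codes, with adjusted p from 0.00124 to 0.0342 by edgeR and limma. Slc2a8 averaged 21.3 ± 1.55 CPM in codes B and C and 15.4 ± 2.83 CPM in code A (edgeR adjusted p = 0.0406). That call held in 5 of 13 fits and was lost in 6 of the 8 that left out a library (highest edgeR adjusted p 0.144, without HG library 4). With 3 codes, 2 of them on 2 libraries each, the test reads the spread within codes and not between preparations.

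Libraries of codes B and C stood above all of code A in 5 of 10 members, against 11.9% of all genes, and below it in 0, against 11.2%. The 5 were Slc2a3, Slc2a6, Slc2a8, Slc2a13 and Slc16a7. Slc16a7 averaged 12.2 ± 0.934 CPM in codes B and C and 9.15 ± 1.01 CPM in code A. Slc2a13 averaged 35.6 ± 1.36 CPM in codes B and C and 29.8 ± 1.96 CPM in code A. Neither passed (edgeR adjusted p = 0.0527 and 0.0959), while both did with GC and length offsets (edgeR adjusted p = 0.00662 and 0.00989). Slc2a1 ran the other way, at 20.6 ± 1.34 CPM in codes B and C and 23.7 ± 2.58 CPM in code A. So did Slc16a1, at 35.3 ± 1.66 CPM in codes B and C and 39.7 ± 2.32 CPM in code A, and neither passed. The share of Slc2a1 in the sum of Slc2a1 and Slc2a3 (RPKM) was 45.8 to 50.2% in codes B and C and 59.8 to 62.0% in code A, whatever the glucose.

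Cell markers moved with the code too. All 10 astrocyte markers passed in the test between codes, and their summed level was 689 to 853 CPM in codes B and C and 1800 to 1990 CPM in code A. The 8 progenitor markers summed to 9280 to 9940 CPM in codes B and C and 5960 to 7090 CPM in code A, and 5 passed. Mural markers other than Cspg4 summed to 9.09 to 11.1 CPM in codes B and C and 31.9 to 51.9 CPM in code A, led by Notch3 and Pdgfrb, and 2 of 5 tested passed. Neuron markers overlapped between the codes, at 58.3 to 73.6 CPM in codes B and C and 52.3 to 63.3 CPM in code A, led by Tubb3 and Syt1, with Neurod6 at 0, and 2 of 5 tested passed. So did endothelial markers, led by Vwf and Kdr, at 5.58 to 8.15 CPM in codes B and C and 5.76 to 7.15 CPM in code A, and 2 of 3 tested passed. Myelin markers, led by Cnp and Mbp, summed to 543 to 735 CPM in codes B and C and 487 to 561 CPM in code A, and 6 of 7 tested passed. The part of these cell types in the transporter levels was not tested, and in bulk RNA fewer cells of a type and less RNA per cell cannot be told apart. Between the glucose groups, progenitor markers summed to 6990 to 9940 CPM in LG and 5960 to 9700 CPM in HG, and astrocyte markers, led by Slc1a3 and Sox9, to 689 to 1990 CPM in LG and 785 to 1850 CPM in HG. No marker of these lists passed between LG and HG, with or without the replicate block.

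**Figure D4:**
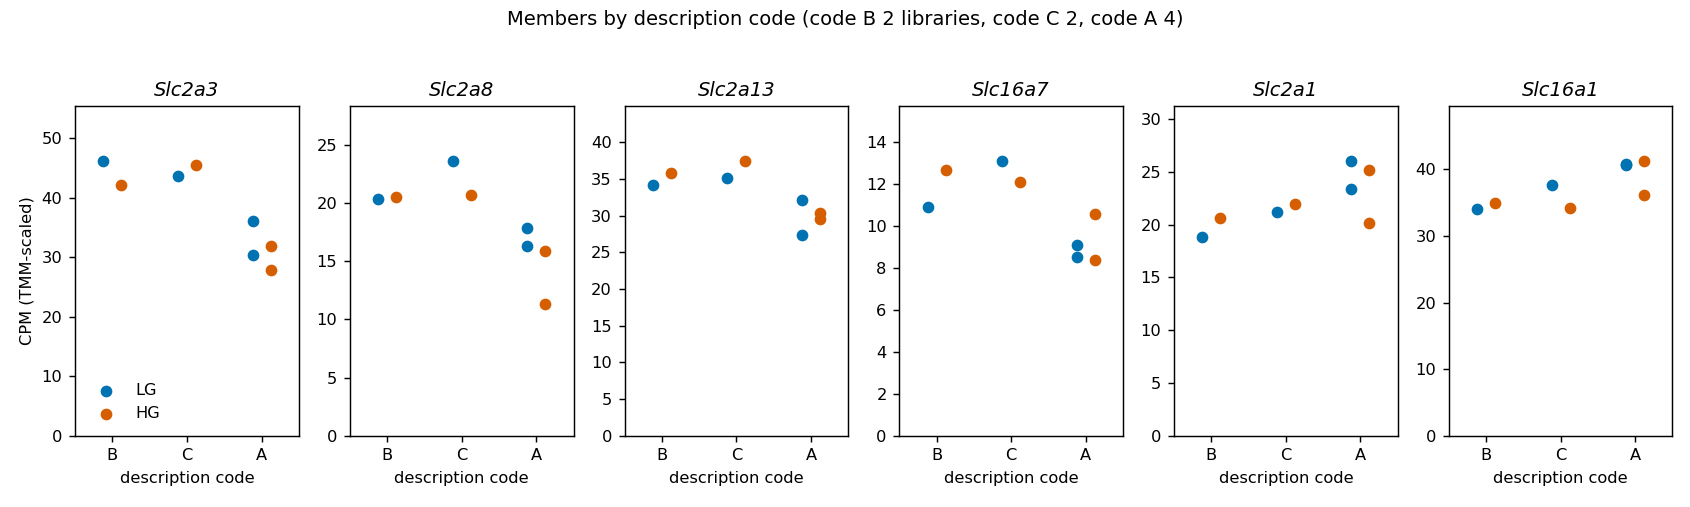
CPM of 6 members by description code, with LG libraries in blue and HG libraries in orange. Slc2a3, Slc2a8, Slc2a13 and Slc16a7 lie higher in codes B and C than in code A in both glucose groups, while Slc2a1 and Slc16a1 overlap.

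Other genes of sugar and monocarboxylate transport and use were read from 5 lists of 55 genes, of which 45 were tested. None passed in LG against HG by edgeR without or with the replicate block, against 0% and 0.418% of all genes. Without the block 4 of the 45 had an unadjusted p under 0.05, against 3.94% of all genes, and with it 9 did, against 13.4%. Their log2 fold changes were above 0 in 22 and below 0 in 23, with a median of -0.005. Of the 10 not tested, Slc2a2, Slc5a1, Slc5a2, Slc5a4b, Slc5a9, Slc5a12 and Hk3 had at most 19 counts in a library. Slc2a7, Slc5a4a and the lactate receptor gene Hcar1 were at 0 in all 8 libraries.

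In the other 6 Slc2 genes 0 of 4 tested had a log2 fold change above 0. Slc2a9, which encodes a urate carrier, led them at 1.25 ± 0.109 RPKM (SD, n = 8), ahead of Slc2a10 at 0.204 ± 0.0561 RPKM. Slc2a4, which encodes the insulin-responsive carrier GLUT4, was at 0.0963 ± 0.0829 RPKM. Slc2a4 differed between codes, at 0.0681 ± 0.0462 CPM in codes B and C and 0.602 ± 0.0437 CPM in code A (edgeR adjusted p = 0.00391). It was lower where Slc2a3 was higher, but on few counts. Slc2a4 had 0 to 6 counts a library in codes B and C and 29 to 42 in code A.

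All 11 other Slc16 genes were tested, and 4 had log2 fold changes above 0. Slc16a13 was at 6.00 ± 1.02 RPKM and Slc16a14 at 1.59 ± 0.183 RPKM.

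Of 14 sodium-coupled and other sugar carriers 8 were tested, led by Slc50a1 (12.9 ± 1.98 RPKM), Slc45a4 (8.65 ± 2.03 RPKM) and Slc45a1 (3.86 ± 0.766 RPKM). Slc45a4 and Slc45a1 were higher in codes B and C than in code A (edgeR adjusted p = 0.000958 and 0.0214). Slc5a3, which encodes a sodium-coupled carrier of myo-inositol and was named after its values were seen, was at 21.2, 28.5, 17.2 and 24.4 CPM in LG, against 26.4, 35.2, 24.7 and 26.4 CPM in HG. LG was below HG in 4 of 4 pairs. The log2 fold change was -0.30 (SE 0.164, 95% interval -0.67 to 0.06, or -0.48 to -0.14 with the replicate block). It was -0.16 without HG library 2, -0.19 without LG library 3 and -0.18 with GC and length offsets. It passed in 1 of 25 fits, DESeq2 with the replicate block (adjusted p = 0.0358), against an edgeR adjusted p of 0.12 with that block.

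Among 11 partner and trafficking genes 10 were tested, with 3 above 0. Tbc1d1 encodes a Rab GTPase-activating protein that controls GLUT4 vesicles in muscle and is a substrate of AMPK. It was at 69.7, 64.4, 69.5 and 63.7 CPM in LG, against 84.1, 81.8, 81.7 and 80.1 CPM in HG. The groups did not overlap, which 1.82% of all genes showed in this direction. The log2 fold change was -0.29 (SE 0.063, 95% interval -0.43 to -0.15, unadjusted p = 0.00092 by edgeR). Tbc1d1 did not pass over all genes without the block, nor with it (edgeR adjusted p = 0.0523). It did pass in 3 of 25 fits: the block with GC and length offsets (edgeR adjusted p = 0.00893), DESeq2 (0.0361) and DESeq2 with the block (0.00246).

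Txnip encodes a glucose-induced arrestin that draws GLUT1 from the cell surface. It was at 4.38, 4.14, 3.77 and 2.73 CPM in LG, against 4.88, 5.30, 5.15 and 4.36 CPM in HG. LG was below HG in 4 of 4 pairs, and the groups touched only between LG library 1 and HG library 4. The log2 fold change was -0.39 (SE 0.171, unadjusted p = 0.0448 by edgeR), and Txnip did not pass over all genes in any of 25 fits. Gipc1, whose protein binds the tail of GLUT1, was at 105 ± 6.95 CPM in LG and 92.8 ± 5.34 CPM in HG (log2 fold change 0.18, 95% interval 0.02 to 0.35, not passed). With GC and length offsets the Gipc1 log2 fold change was 0.08 without the block and 0.07 with it. Nptn, which encodes a relative of basigin, was at 16.2 ± 0.595 RPKM over 8 libraries (log2 fold change 0.04).

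Of 13 genes for the first steps after uptake 12 were tested, with 10 above 0 and a median of 0.11. Ldhb and Ldha encode the lactate dehydrogenase subunits that favour lactate use and lactate formation. Ldhb was at 247 ± 42.2 CPM in LG and 230 ± 14.4 CPM in HG, and Ldha at 180 ± 4.02 CPM in LG and 174 ± 17.2 CPM in HG. Hk1, the main brain hexokinase, was at 174 ± 13 CPM in LG and 161 ± 9.25 CPM in HG. Their log2 fold changes were 0.10, 0.05 and 0.12, and none passed. Ldhb was at 0.008 without LG library 1 and 0.21 without LG library 4. Ldha was at 0.01 without HG library 1, 0.03 without HG library 3 and 0.12 without HG library 4. Hk1 was at 0.03 with GC and length offsets and at 0.07 without LG library 3.

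**Figure D5:**
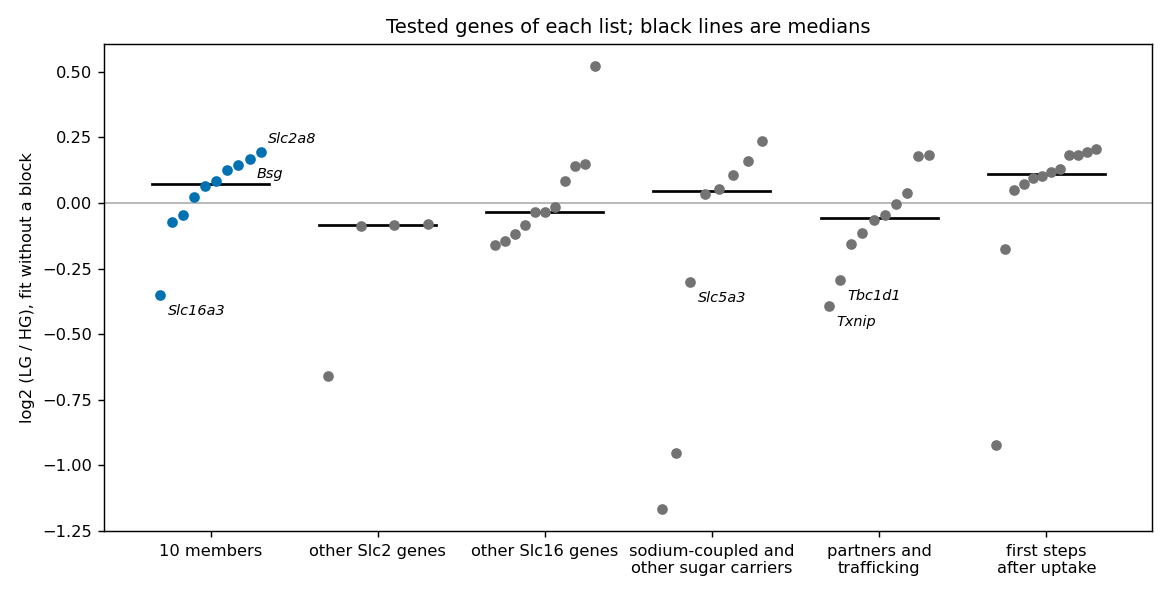
Log2 ratio of LG over HG for the 10 members (blue) and the tested genes of 5 other lists (grey), with the median of each list as a black line. The medians lie between -0.09 and 0.11, and no plotted gene passed over all genes by edgeR without a block (DESeq2 without a block called Tbc1d1).

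The profiles most like those of 3 members were sought among 10076 genes with a mean of at least 10 CPM, by the mean absolute difference of centred log2 CPM over the 8 libraries. For Slc2a1 the nearest were 1700017B05Rik (0.0295), Efemp2 (0.0390) and Slc46a1 (0.0462), where the median gene was at 0.174. For Slc16a1 they were D1Ertd622e (0.0166), Gmfb (0.0305) and Wdr20 (0.0324), with a median of 0.156. For Bsg they were Poldip2 (0.0186), Tbrg1 (0.0231) and Gstp1 (0.0239), with a median of 0.141. The libraries share 3 codes, so likeness here is also likeness in how genes vary with the code.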

How the data were processed

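RNA-seq was made from 100 ng of total RNA per sample with an mRNA kit and paired reads of 150 bp, per the labels' protocols. The authors deposited raw counts per Ensembl gene, as whole numbers. Per the submitters' processing notes, the build was mm10 and the tools named include STAR, featureCounts, CASAVA 1.8.2 and DESeq2, with no role or order. Annotation release, strand setting and handling of multiply mapped reads: not given in the sources used here. Symbols, GRCm38 places and exon lengths came from GENCODE M21, which matched 52125 of 56980 IDs.

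Counts were filtered by filterByExpr, scaled by TMM and tested with edgeR 4.0.16 (quasi-likelihood, robust) in R 4.3.3, with Benjamini-Hochberg adjustment over all 18905 genes. An SE is the absolute log2 fold change over the root of F, and intervals are 95% from the same fit. Alternatives used limma 3.58.1, DESeq2 1.42.0 and mgcv 1.9.3 (GC and length trends; both known for 97.5% of tested genes). Scripts were tested on simulated data. Deviations from group means correlated between same-numbered libraries at r from 0.448 to 0.625, against at most 0.419 otherwise, so the numbers pair the libraries. The fit without a block leaves this pairing out, so its intervals also take in the spread between pairs. The lowest chi-square between replicates was 17.2 per degree of freedom. The members and lists were chosen with earlier results of these data known. Named were all members, the 3 most abundant genes of each list, genes that passed, Txnip, Emb, Ldha and Ldhb. Some genes that this rule names are not reported here.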

Additional observations from a re-analysis of the deposited data

Results flagged for a closer look

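Within the HG group, Slc5a3 was highest in library 2 at 35.2 CPM, far from the other 3 HG libraries at 24.7 to 26.4 CPM. Among 74 groups of 4 libraries looked at, this was the 1 such gap, and chance gives about 1 in 20.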

How the results depend on the processing

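No member passed between LG and HG under any of 239 alternative values, and 6 of 10 members never turned sign. The count over all genes was 0 without a block. It was 79 with the replicate block, 1 with the description code as block, 17 with counts summed per code and 249 with GC and length offsets and the replicate block. It was 7 by DESeq2 and 453 by DESeq2 with the replicate block. Leaving out a library without a block gave 0. With the replicate block it was 6, 0, 39 and 148 without pairs 1, 2, 3 and 4. Members and other list genes stayed at 0 in these fits. Other list genes that passed numbered 1 with the offsets and replicate block (Tbc1d1), 1 by DESeq2 (Tbc1d1) and 2 by DESeq2 with the replicate block (Tbc1d1 and Slc5a3). The block changed no other call. Signs turned with GC and length offsets, with and without the replicate block, for Slc2a1 (-0.056 and -0.051), Slc16a7 (0.102 and 0.096) and Slc50a1 (-0.004 and -0.004), and with the block for Slc2a13 (0.002). Slc2a1 was at -0.007 with counts summed per code. Leaving out a library or a pair, log2 fold changes ran from -0.057 to 0.112 for Slc2a1 (-0.043 without pair 1), -0.026 to 0.200 for Slc2a3, -0.096 to 0.023 for Slc2a13, -0.201 to 0.013 for Slc16a7 (0.007 without pair 1), -0.305 to 0.134 for Slc2a10 (0.009 without pair 4), -0.705 to 0.346 for Slc2a4, -0.091 to 0.052 for Slc16a14 (0.021 without pair 3), -0.07 to 0.131 for Slc50a1 (-0.01 without pair 1 and 0.109 without HG library 3), -0.104 to 0.215 for Slc45a4 and -0.096 to 0.014 for Emb. Between codes, members that passed numbered 1 with RLE size factors, 1 with at least 1 CPM in 4 libraries and 4 with offsets, an alternative chosen after seeing the data. Leaving out a library gave 1 to 2 members and 1575 to 2162 genes, against 2585, the lowest without LG library 3 (1575), HG library 4 (1618) and HG library 3 (1626). The causes were not tested. With 26 to 58 counts a library, depth limits Slc16a3 most; with at least 1 CPM in 4 libraries it was not tested.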
